A study of Mus musculus with 22 samples.

Results

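The comparison concerns the autosomal H3K27me3 domains of 2 progenitor populations of the embryonic mouse brain, and asks which domains the later population no longer carries and which it carries anew. Neuroepithelial cells (NEC), from which all later cortical progenitors arise, were taken at E9.5 (E, embryonic day), and proliferative apical radial glia (aRG-P), progenitors that divide at the ventricle and descend from neuroepithelial cells, were taken at E14.5. Both populations were purified from C57BL/6JOlaHsd mice, with 2 samples for each cell type and mark. Members were all H3K27me3 peaks on chromosomes 1 to 19 in the deposited NEC and aRG-P lists, 10432 peaks (5798 NEC and 4634 aRG-P) of the 110069 peaks in the 10 lists of the series, of which 30575 are H3K27me3 peaks. A peak counted as kept when a peak of the other list overlapped it by at least 1 bp. A NEC peak with no such partner is called lost, and an aRG-P peak with no such partner is called gained.

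H3K27me3 is the histone mark that Polycomb repressive complex 2 writes, and it covers developmental regulator genes that a cell keeps silent, often as broad domains. H3K4me3 marks active promoters and promoters held ready for activation. Where both lie at a promoter of a stem or progenitor cell, the promoter is called bivalent, a state known for genes that are switched on or silenced for good as lineages form.

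Each list was called on combined samples, so there is no spread between replicates and no difference below was tested between cell types. Intervals in parentheses after a share are exact Clopper-Pearson 95% intervals over peaks, which cover counting error only. Read depth is unknown, so a domain missing from a list may carry the mark at a level that was not called. Per its peak names, the aRG-P H3K27me3 list was called after an unnamed set had been left out, with no mention of the duplicate removal that the NEC names give. How this bears on the losses was not tested. The labelled cell types could not be checked against marker genes, since the lists carry no gene names, and regions are given by position in mouse build mm9, counted from 1. In a population, 2 marks at one place may sit on the same or on different cells and alleles, which cannot be told apart here.

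About the same number of NEC domains were lost as were kept, but the lost ones were the short ones. Lost domains numbered 2921 of 5798 (50.4%, 49.1 to 51.7%) and gained domains 1666 of 4634 (36.0%, 34.6 to 37.4%). With NEC cut to its 4634 highest-scoring domains 1946 were lost. With both lists cut at their median score, 1260 of 2899 were lost and 650 of 2317 gained. There a domain whose only partner scored below the cut also counted as lost or gained. The corresponding shares over all chromosomes were 66.7% lost and 34.9% gained, which count the X chromosome, left out from here on. For H3K4me3, the autosomal shares by the same rule were 24.7% of NEC peaks lost and 2.60% of aRG-P peaks gained. Joining both H3K27me3 lists gave 7393 separate regions, of which 2921 (39.5%) held NEC peaks alone, 1666 (22.5%) aRG-P peaks alone, and 2806 (38.0%) peaks of both.

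Counted in bases, the shared part was larger. The 2 lists had 11.3 Mb in common, 54.5% of the 20.7 Mb covered in NEC and 69.2% of the 16.3 Mb covered in aRG-P. Lost domains held 5.60 Mb, 27.1% of the NEC bases, and a further 3.83 Mb (18.5%) was given up at domains that still had an aRG-P partner. Gained domains held 2.65 Mb, 16.3% of the aRG-P bases, and 2.36 Mb was added around or within kept domains. Of the 9.43 Mb that aRG-P did not cover, the larger part thus lay in domains lost whole and the rest in domains that had shrunk or moved.

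Width separated lost from kept domains. The median lost domain spanned 1301 bp (interquartile range 717 to 2359 bp) and the median kept NEC domain 3506 bp (2115 to 5628 bp). Of NEC domains under 1 kb, 1094 of 1286 were lost (85.1%, 83.0 to 87.0%). The share was 65.6% (63.0 to 68.1%) at 1 to 2 kb, 37.2% (35.1 to 39.3%) at 2 to 5 kb and 15.6% (12.9 to 18.5%) at 5 to 10 kb. The share was lower at each step up to this width, with no overlap of the intervals. Of the 214 domains of 10 to 20 kb, 13 were lost (6.07%, 3.27 to 10.2%), and of the 105 domains of at least 20 kb, 12 were lost (11.4%, 6.05 to 19.1%), 2 shares whose intervals overlap. At 10 kb and over, 25 of 319 were lost (7.84%, 5.14 to 11.4%), or 58 (18.2%) when a partner had to cover at least 50% of the domain.

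Gained domains followed the same order. Their median width was 1009 bp, against 2628.5 bp for aRG-P domains that NEC shared. Under 1 kb, 829 of 1377 aRG-P domains were gained (60.2%, 57.6 to 62.8%), and at 2 to 5 kb 260 of 1336 (19.5%, 17.4 to 21.7%). At 5 kb and over, 78 of 792 were gained (9.85%, 7.86 to 12.1%), and at 20 kb and over 4 of 112 (3.57%, 0.982 to 8.89%). At 5 kb and over the share was 19.6% when a partner had to cover at least 50% of the domain. With both lists cut at their median score it was 15.1%. The longest gained domain spanned 34.4 kb and the longest lost one 80.9 kb, while the longest kept domain spanned 145.1 kb in NEC and 147.5 kb in aRG-P. The score the authors gave each peak moved with width: the median score of lost domains stood at percentile 31.5 of the NEC scores and that of kept ones at percentile 71.3, and in aRG-P the gained and kept medians stood at percentiles 26.5 and 64.4. The part of width and score in whether a domain was called in the other list was not tested.

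**Figure D1:**
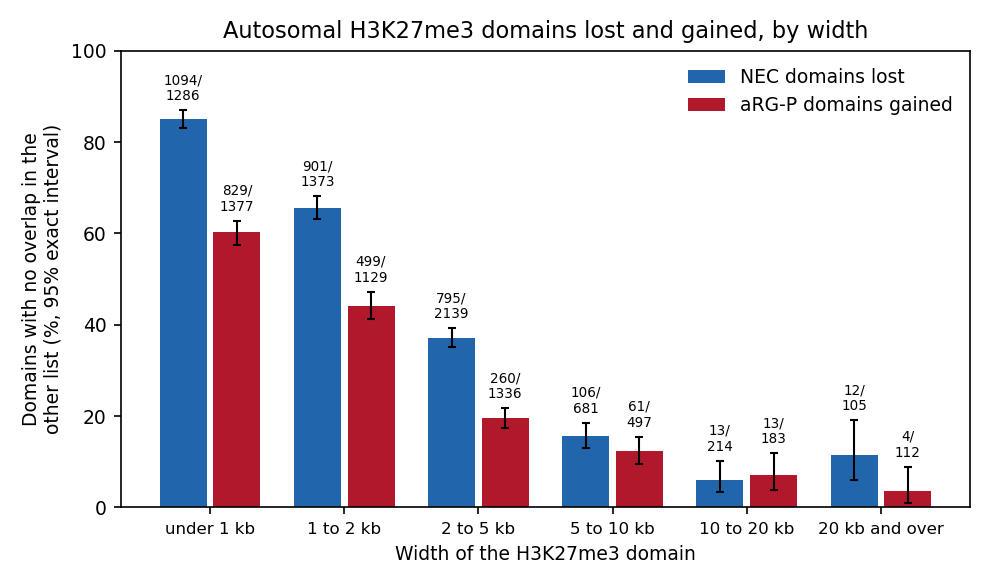
Share of H3K27me3 domains lost (NEC domains with no aRG-P peak) and gained (aRG-P domains with no NEC peak) by domain width on the autosomes, with exact 95% intervals. The lost share goes from 85.1% under 1 kb to 6.07% at 10 to 20 kb, and the gained share from 60.2% under 1 kb to 3.57% at 20 kb and over.

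Local H3K4me3 of the same cell type was less frequent at lost and at gained domains than at kept ones. An H3K4me3 peak of NEC overlapped 1476 of the 2921 lost domains (50.5%, 48.7 to 52.4%) and 2139 of the 2877 kept NEC domains (74.3%, 72.7 to 75.9%). An H3K4me3 peak of aRG-P overlapped 93 of the 1666 gained domains (5.58%, 4.53 to 6.80%) and 1065 of the 2968 kept aRG-P domains (35.9%, 34.2 to 37.6%). With both H3K27me3 lists cut at their median score these shares were 77.9% of lost and 19.4% of gained domains. Counting H3K4me3 within 2000 bp they were 67.4% and 12.3%. The gap between lost and kept NEC domains was much narrower under the score cut than without it. In each of these settings lost domains carried their own cell type's H3K4me3 more often than gained domains did. The aRG-P H3K4me3 list covered 11.6 Mb and the NEC list 19.7 Mb, with median fold enrichments of 9.0 and 19.2. The part of this in the contrast between losses and gains was not tested.

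The gap between lost and kept NEC domains was narrower within width classes than over all widths. Under 1 kb, 33.4% of lost and 38.0% of kept domains held NEC H3K4me3, and at 2 to 5 kb 70.3% and 78.1%. At 20 kb and over the shares were 83.3% and 82.8%. The gap between gained and kept aRG-P domains was wider in every class: 3.02% against 17.9% under 1 kb, and 12.7% against 44.6% at 2 to 5 kb. Of the gained domains of 10 to 20 kb, 0 of 13 held aRG-P H3K4me3 (the exact interval reaches 24.7%), and of those of at least 20 kb 0 of 4.

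The 2 cell types' H3K4me3 lists together put each domain in 1 of 4 states: H3K4me3 in neither cell type, in NEC only, in aRG-P only, or in both. Of the lost domains, 1429 (48.9%) had it in neither, 1088 (37.2%) in both, 388 (13.3%) in NEC only and 16 (0.548%) in aRG-P only. Of the kept NEC domains, 730 (25.4%) had it in neither, 1240 (43.1%) in both, 899 (31.2%) in NEC only and 8 (0.278%) in aRG-P only. Of the gained domains, 1475 (88.5%) had it in neither, 98 (5.88%) in NEC only, 93 (5.58%) in both and 0 in aRG-P only, which allows up to 0.221% of the gained domains (the upper exact bound). Gains thus lay mostly where neither cell type had an H3K4me3 peak, and losses fell in 2 large groups, one without H3K4me3 and one that held it at both ages. Of lost domains without NEC H3K4me3, 16 of 1445 (1.11%) had an aRG-P H3K4me3 peak, and of such kept domains 8 of 738 (1.08%). New H3K4me3 peaks were few anywhere: 402 of the 15475 aRG-P ones (2.60%) had no NEC partner. Of these 402, 83 (20.6%, 16.8 to 24.9%) met H3K27me3 of NEC and not of aRG-P. Of the aRG-P H3K4me3 peaks shared with NEC, 1632 of 15073 (10.8%) did.

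**Figure D2:**
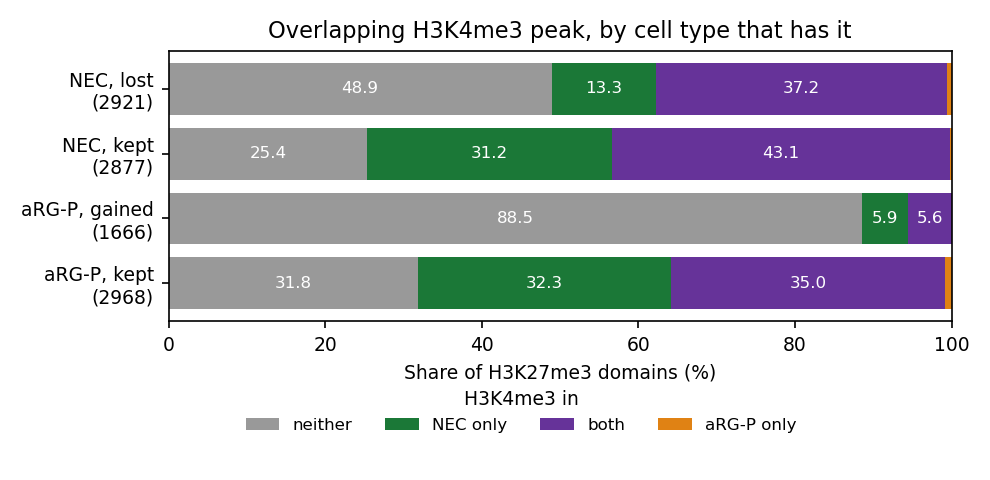
Share of lost NEC, kept NEC, gained aRG-P and kept aRG-P domains in each of the 4 local H3K4me3 states. The state with H3K4me3 in neither cell type holds 48.9% of lost, 25.4% of kept NEC, 88.5% of gained and 31.8% of kept aRG-P domains.

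Among NEC domains with H3K4me3, loss of H3K27me3 went with H3K4me3 that persisted. Of domains with H3K4me3 in both cell types, 1088 of 2328 were lost (46.7%, 44.7 to 48.8%), and of those with H3K4me3 in NEC only, 388 of 1287 (30.1%, 27.6 to 32.7%). Put the other way, 1088 of the 1476 lost domains with NEC H3K4me3 (73.7%) also held an aRG-P H3K4me3 peak, against 1240 of 2139 kept ones (58.0%). Domains without H3K4me3 in either cell type were lost in 1429 of 2159 cases (66.2%, 64.2 to 68.2%).

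The higher loss with persistent H3K4me3 than with H3K4me3 in NEC only held within width. At 2 to 5 kb, 466 of 1141 domains with persistent H3K4me3 were lost (40.8%) and 93 of 467 with H3K4me3 in NEC only (19.9%). At 5 to 10 kb the shares were 71 of 389 (18.3%) and 3 of 169 (1.78%, 0.37 to 5.10%). At 10 to 20 kb they were 9 of 84 (10.7%) and 0 of 90, which allows up to 4.02% (the upper exact bound), and at 20 kb and over 9 of 45 and 1 of 42 (2.38%). Of the 131 lost domains of at least 5 kb, 89 (67.9%) had H3K4me3 in both cell types and 4 (3.05%) in NEC only. Domains with H3K4me3 in neither cell type were lost at 85.8% under 1 kb, 70.8% at 1 to 2 kb and 44.5% at 2 to 5 kb, beside 94.3%, 72.0% and 40.8% with persistent H3K4me3, so their higher loss over all widths did not recur in each class. Longer ones were lost at 25.4% (5 to 10 kb), 10.5% (10 to 20 kb) and 11.8% (20 kb and over).

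**Figure D3:**
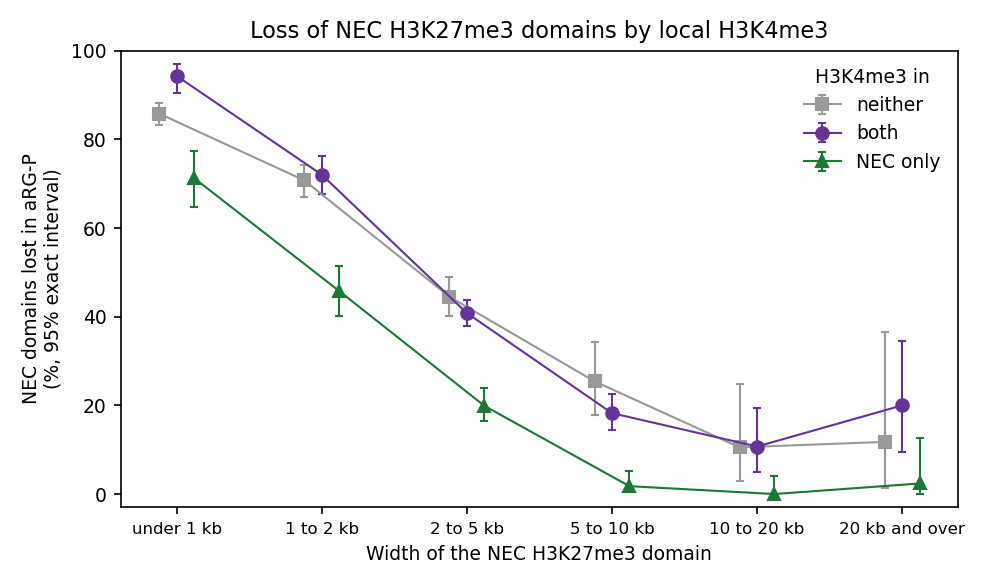
Share of NEC H3K27me3 domains lost, by width and by local H3K4me3 state, with exact 95% intervals. In all 6 width classes the share is higher for domains with H3K4me3 in both cell types than for those with it in NEC only, for example 18.3% against 1.78% at 5 to 10 kb.

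Domains with persistent H3K4me3 also had stronger NEC H3K4me3, with a median best fold enrichment of 17.2 against 9.85 for NEC-only H3K4me3, and they differed in width too. The shares were therefore also set side by side within 3 equal classes of NEC fold enrichment, a step added after seeing the data. In the weakest class, 37.7% of domains with persistent and 23.8% of those with NEC-only H3K4me3 were lost. The middle class gave 37.5% and 31.4%, and the strongest 58.9% and 52.7%, with overlapping intervals in these 2. Within classes of both width and fold enrichment, the share was higher with persistent H3K4me3 in 9 of 9 classes. For domains of at least 5 kb the shares were 8.77% against 1.34% in the weakest class of fold enrichment, 12.7% against 1.61% in the middle and 28.6% against 0 of 15 (upper exact bound 21.8%) in the strongest.

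Seen from H3K4me3, its own loss was more frequent where H3K27me3 was present in aRG-P. Of NEC H3K4me3 peaks with no H3K27me3 in either cell type, 2531 of 12571 had no aRG-P partner (20.1%), close to the 24.7% over all autosomal NEC H3K4me3 peaks. The share was 365 of 1906 (19.2%) where H3K27me3 was in NEC only, 1211 of 2452 (49.4%, 47.4 to 51.4%) where it was in both and 134 of 267 (50.2%, 44.0 to 56.3%) where it was in aRG-P only. Weak H3K4me3 peaks went missing most in every group, and the weakest of 3 equal classes of fold enrichment held 1072 of the 1211 missing peaks with H3K27me3 in both. In that class the shares, in the order above, were 66.7%, 46.5%, 72.9% and 86.2%, so the gap between H3K27me3 in neither and in both was far smaller than over all peaks. In the middle class they were 6.26%, 3.31%, 15.2% and 26.6%, and in the strongest 0.094%, 0.395%, 4.21% (4 of 95) and 15.8% (9 of 57).

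Most kept domains were covered only in part, and a smaller share of their bases was kept where H3K4me3 was called at both ages than where it was in NEC only or in neither. The median kept NEC domain was covered to 75.5% in aRG-P (interquartile range 47.7 to 96.4%). Of the 2877, 947 (32.9%) were covered to at least 90% and 774 (26.9%) to less than 50%. Kept aRG-P domains, which leave out the gained ones, lay in NEC domains to a median of 97.3%, and 1786 of 2968 (60.2%) to at least 90%. Kept NEC domains of at least 20 kb were covered to a median of 97.1% and those of 2 to 5 kb to 69.7%. Splits were few: 138 kept NEC domains (4.80%) met more than 1 aRG-P peak.

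In the 2618 pairs of a single NEC and a single aRG-P peak, the median width went from 3398.5 to 2669 bp, a median log2 ratio of -0.25 (aRG-P over NEC), and 65.3% of pairs were narrower in aRG-P. With H3K4me3 in both cell types the median log2 ratio was -0.45 and 864 of 1137 pairs (76.0%) were narrower. With H3K4me3 in NEC only it was -0.04, with 447 of 839 narrower (53.3%), and pairs of at least 20 kb stood at 0.01. The shortest pairs went the other way: 163 NEC domains under 1 kb had a median width of 674 bp and partners of 1239 bp, a median log2 ratio of 0.85, and 40 of them (24.5%) were narrower in aRG-P. Pairs were classed by NEC width alone, and the part of this choice in the wider partners was not tested. By bases, aRG-P kept 67.0% of the kept domains with persistent H3K4me3, 85.4% of those with NEC-only H3K4me3 and 74.1% of those with none. These shares were not set within width classes, though coverage differed with width. Within the first group, 59.2% of the H3K27me3 bases under an aRG-P H3K4me3 peak were kept and 68.1% of those outside one. Within the second, 92.8% of the bases under the former NEC H3K4me3 peak were kept and 84.2% of those outside it. Under the NEC H3K4me3 peaks of the first group the share kept was 68.4%, against 66.6% outside them, so the lower share was seen for the aRG-P peaks and not for the NEC peaks.

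Most lost domains lay away from any remaining one. Only 265 (9.07%) had an aRG-P peak within 5 kb, and the median distance to the nearest was 126.0 kb. Gained domains lay closer to NEC domains, 288 (17.3%) of them within 5 kb, at a median of 56.2 kb. The NEC list has more peaks than the aRG-P list, whose part in this difference was not tested.

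The 3 other cell types of E14.5 are aRG-N (apical radial glia that are neurogenic), bRG (basal radial glia, which divide away from the ventricle) and N (neurons), and their lists show whether a domain missing from or new to aRG-P had the same fate there. They have 1 H3K27me3 list each, and the aRG-N samples are labelled as technical replicates. Of the lost domains, 1828 (62.6%) were in none of these lists, 782 (26.8%) were met in aRG-N, 705 (24.1%) in N and 175 (5.99%) in bRG. The kept NEC domains were met in 96.7%, 94.3% and 80.4% of cases. Lost domains were therefore mostly absent from the whole set of E14.5 lists. Of the 131 lost domains of at least 5 kb, 57 (43.5%) were met in N and 46 (35.1%) in aRG-N, and 55 (42.0%) in none.

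Gained domains divided by width. All 78 of at least 5 kb were met in aRG-N, 77 (98.7%) in N and 66 (84.6%) in bRG, near the shares of kept aRG-P domains of all widths, which were 95.1%, 92.1% and 77.3%. Of the 829 under 1 kb, 397 (47.9%) were met in none of the 3. Over all widths 981 (58.9%) were met in aRG-N, 799 (48.0%) in N and 560 (33.6%) in none. Of the gained domains with H3K4me3, N met 88 of the 98 with NEC-only H3K4me3 and 88 of the 93 with H3K4me3 in both. These shares were also near that of kept aRG-P domains in N. The aRG-N list met 79 (80.6%) and 76 (81.7%), below the 95.1% of kept domains. The bRG list met 56 (57.1%) and 71 (76.3%), against 77.3% of kept domains.

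**Figure D4:**
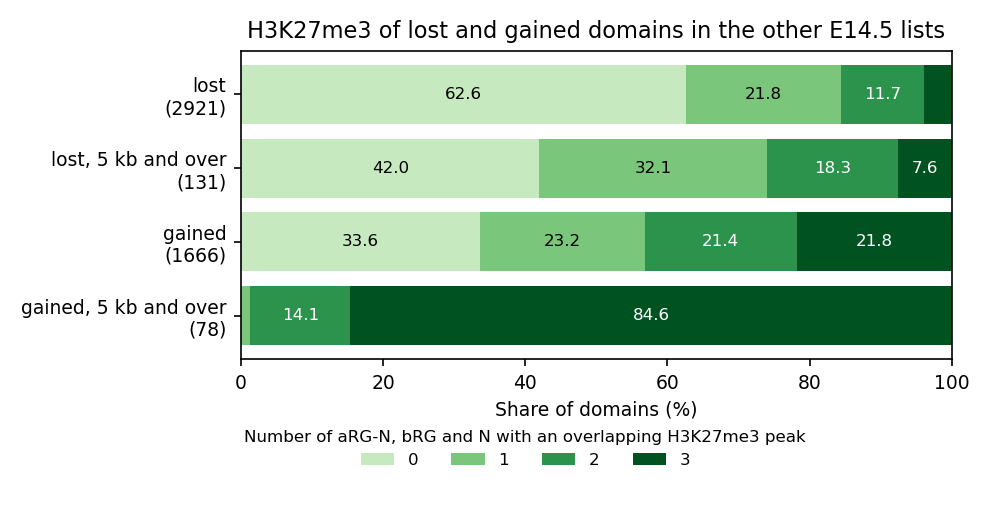
Lost and gained domains, in all and of at least 5 kb, divided by the number (0 to 3) of the aRG-N, bRG and N lists with an overlapping H3K27me3 peak. None of the 3 lists meets 62.6% of lost and 33.6% of gained domains, and all 3 meet 3.87% and 21.8%, or 7.63% and 84.6% at 5 kb and over.

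Set against each E14.5 list in turn, all of which share the NEC list, the share of autosomal NEC domains lost was 50.4% for aRG-P, 38.5% for aRG-N, 57.1% for bRG and 41.0% for N. Of NEC domains of at least 10 kb, the shares were 7.84%, 8.46%, 11.3% and 7.84%. The gained shares were 36.0%, 42.7%, 23.6% and 37.7%. The lists cover 16.3, 24.6, 12.4 and 21.8 Mb in the same order, and over domains of all widths the more bases a list covered, the lower was the loss and the higher the gain. The loss at 10 kb and over did not follow this order. The part of list size in the aRG-P losses was not tested.

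Single regions are given next. They are the longest in each H3K4me3 state with no H3K27me3 peak of the other list within 5000 bp. The longest lost domain, chr8:87257975-87338904 (80.9 kb), was in no E14.5 list. It held 1 short NEC H3K4me3 peak (0.183 kb, fold enrichment 5.42) and 5 aRG-P H3K4me3 peaks covering 4.87 kb, the strongest at 9.42, so H3K4me3 was wider in aRG-P here. The domain chr1:42739894-42772996 (33.1 kb) had 6.90 kb of H3K4me3 in NEC (best fold 25.6) and 6.76 kb in aRG-P (11.6), and H3K27me3 over 7.59% of it in N and none in aRG-N or bRG. The domain chr13:83852072-83883355 (31.3 kb) held 6 NEC H3K4me3 peaks covering 11.3 kb and 12 aRG-P peaks covering 11.1 kb, and no E14.5 list had H3K27me3 in it. With wider H3K4me3 in aRG-P, the chromosome 8 domain was not typical of the 1088 lost domains with H3K4me3 in both cell types. In 804 of these (73.9%) H3K4me3 covered less in aRG-P, the chromosome 1 and chromosome 13 domains among them by a small margin. Over all 1088 it covered 34.8% of bases in NEC and 29.1% in aRG-P. Among kept NEC domains of the same state, H3K4me3 covered less in aRG-P in 1155 of 1240 (93.1%).

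Lost domains without H3K4me3 were led by chr13:56310151-56334021 (23.9 kb), chr7:86673485-86695126 (21.6 kb) and chr6:115424193-115437117 (12.9 kb). None had an H3K4me3 peak in any of the 5 cell types. The chromosome 7 domain stood at percentile 97.6 of the NEC scores and had no H3K27me3 in any E14.5 list. With H3K4me3 in NEC only, the longest was chr18:37884502-37929188 (44.7 kb), whose 2 NEC H3K4me3 peaks covered 0.605 kb. It had H3K27me3 over 4.62% of its length in aRG-N and 1.37% in N, and 1 short H3K4me3 peak each in aRG-N and bRG. The next, chr10:126943679-126952730 (9.05 kb), had 3 NEC H3K4me3 peaks (best fold 15.1) and neither mark in any E14.5 list, and chr7:149265267-149270607 (5.34 kb) had 1 NEC H3K4me3 peak and H3K27me3 over 38.3% of its length in N, 18.6% in aRG-N and 13.7% in bRG. With H3K4me3 in aRG-P only, the longest were chr8:87225253-87233048 (7.80 kb), chr10:80886590-80892084 (5.50 kb) and chr11:82804726-82806072 (1.35 kb), each with 1 aRG-P H3K4me3 peak at a fold of 4.28 to 4.71 and an H3K4me3 peak in aRG-N as well.

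Of NEC domains of at least 10 kb that kept a partner, the least covered was chr13:78303453-78336752 (33.3 kb). The aRG-P list covered 1.78% of it and bRG 3.16%, while aRG-N covered 67.5% and N 77.4%. Its H3K4me3 lay towards one end, in all 5 cell types, with a best fold of 36.5 in NEC and 13.3 in aRG-P. The next were chr4:22403835-22427617 (23.8 kb, 2.06% covered in aRG-P and 57.1% in N) and chr19:59524055-59545827 (21.8 kb, 2.31% and 81.7%), both with no H3K27me3 in aRG-N or bRG and with H3K4me3 in every cell type. At the other extreme, chr15:102732260-102877408 (145.1 kb) and chr6:52097325-52228677 (131.4 kb) were covered in full in aRG-P, and chr11:96109490-96240642 (131.2 kb) to 99.7%.

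The longest gained domains, chr11:35349539-35383981 (34.4 kb), chr9:69661653-69691207 (29.6 kb) and chr2:63803503-63824207 (20.7 kb), had no H3K4me3 peak in any cell type. They were covered to 94.7% or more in aRG-N and N and to at least 77.8% in bRG. With H3K4me3 in NEC only, chr3:96125754-96149167 (23.4 kb) and chr19:55966800-55975829 (9.03 kb) had NEC H3K4me3 at best folds of 8.87 and 8.37. The third, chr9:114465817-114474681 (8.87 kb), had one mark in NEC and the other in aRG-P: NEC had a 5.52 kb H3K4me3 peak at a fold of 36.9 and no H3K27me3, and aRG-P had H3K27me3 at percentile 99.1 of its scores and no H3K4me3. H3K27me3 covered it to 95.5% or more in aRG-N, bRG and N, where H3K4me3 peaks together covered 0.249 to 0.694 kb of it.

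With H3K4me3 in both, the longest gained domains were chr10:45203789-45212925 (9.14 kb), chr17:63220785-63229919 (9.13 kb) and chr2:69421781-69428656 (6.88 kb). Their best H3K4me3 folds were 24.1, 43.3 and 34.5 in NEC and 9.0, 11.1 and 6.85 in aRG-P, and their H3K4me3 covered 2.24, 1.80 and 3.37 kb in NEC and 1.02, 0.553 and 1.13 kb in aRG-P. All 3 carried H3K27me3 in aRG-N, bRG and N. Less H3K4me3 in aRG-P than in NEC was the rule in this state, in 90 of the 93 gained domains (96.8%) and 966 of the 1040 kept aRG-P domains (92.9%). The aRG-P domains of at least 10 kb that NEC covered least were chr10:114895317-114918455 (23.1 kb, 2.50%), chr18:66165858-66181564 (15.7 kb, 5.96%) and chr7:150541461-150573657 (32.2 kb, 7.39%), with no H3K4me3 peak in any list.

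**Figure D5:**
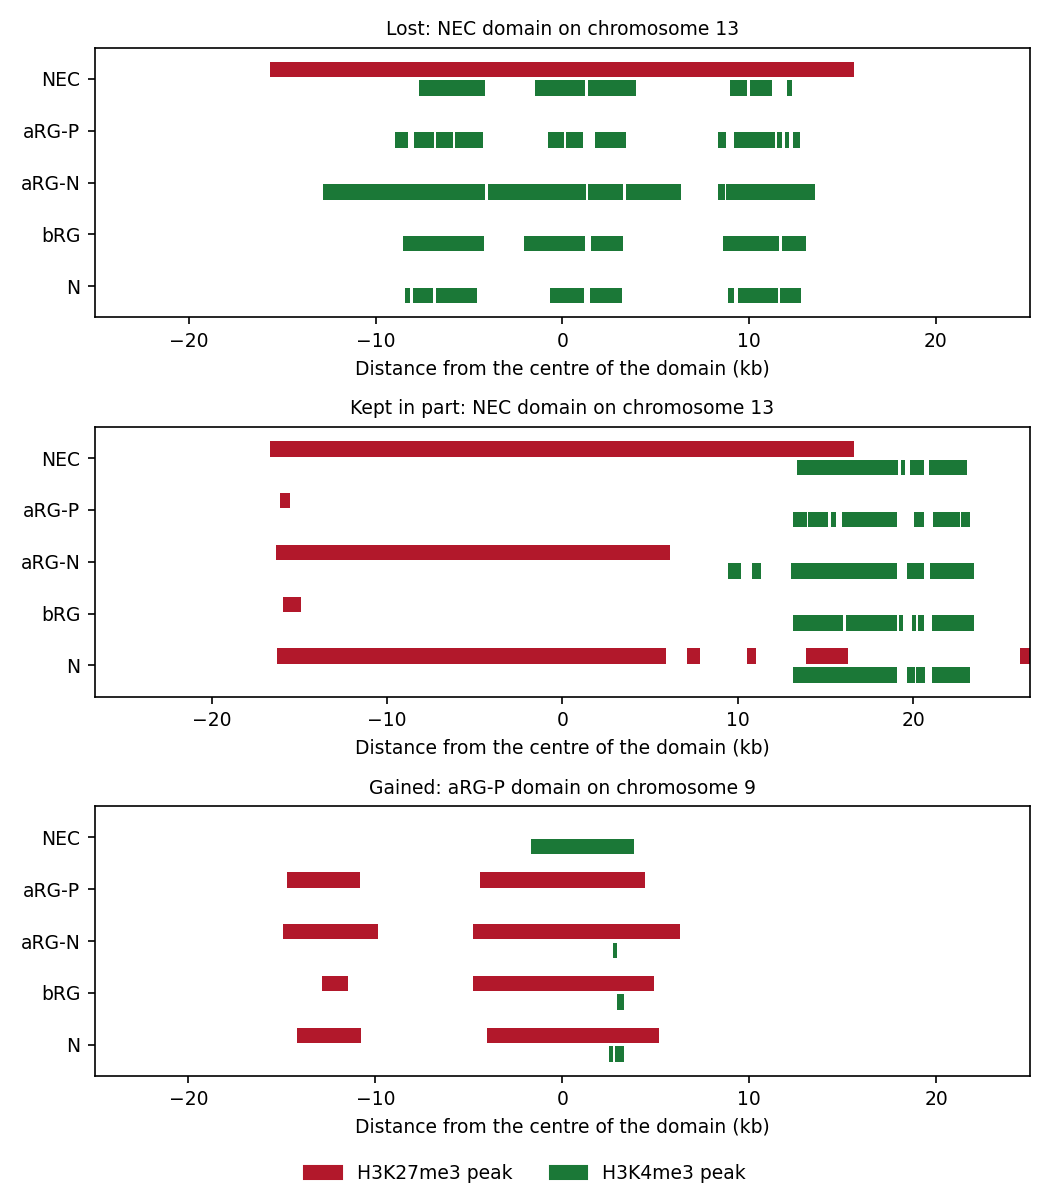
Peaks of both marks in the 5 cell types at 3 of the named regions, plotted as distance in kb from the centre of the named domain. The lost domain of 31.3 kb has H3K27me3 in NEC alone and H3K4me3 in every cell type, the least covered kept domain of 33.3 kb has H3K27me3 over 1.78% of its length in aRG-P, and the gained domain of 8.87 kb has a 5.52 kb H3K4me3 peak in NEC where the E14.5 cell types have H3K27me3.

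Losses and gains were spread over the autosomes. The lost share ran from 46.8% on chromosome 2 to 56.0% on chromosome 3, and the gained share from 26.6% on chromosome 13 to 48.7% on chromosome 14 (91 of 187, 41.3 to 56.1%). In windows of 1 Mb, lost domains lay in 1275 of the 1631 windows with a NEC domain and gained ones in 746 of the 1383 with an aRG-P domain. The window with the most lost bases, chr8:87000001-88000000, lost 98.7 kb in 7 domains, the 80.9 kb domain among them. The window with the most gained bases, chr11:35000001-36000000, gained 53.9 kb in 16 domains, all without H3K4me3 in NEC and aRG-P. In another window, chr5:132000001-133000000, chosen after its values were seen, all 13 NEC domains (30.6 kb) were lost and none was met in any E14.5 list.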

How the data were processed

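Chromatin immunoprecipitation with anti-H3K27me3 and anti-H3K4me3 antibodies used a kit for low cell numbers, per the labels' protocols. Build mm9, bedtools, MACS2 and Bowtie 1.0.0 are named in the submitters' processing notes. The authors deposited 1 peak list per cell type and mark, called on combined samples per the peak names and holding peaks near transcripts per the file headers, with a window of 2000 bp added for aRG-P H3K4me3. Gaps in the peak numbers put 30.9% of NEC and 35.7% of aRG-P H3K27me3 calls, and 17.8% and 8.65% of H3K4me3 calls, outside the lists used here. A domain may thus count as lost although a call left out of the other list overlapped it. The deposited H3K4me3 columns give, for each peak, its enrichment as a fold (ratio) over background, then −log10 p and −log10 q. The deposited H3K27me3 columns are called a score, since their meaning could not be settled, and were used only to rank peaks within a list or, as an alternative, as a common lowest value. Every measurement column of the lists used was assigned to its group.

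Overlaps, widths and exact 95% intervals were computed with scipy 1.17.1, pandas 2.3.3 and numpy 2.4.6 under Python 3.11.15, and plotted with matplotlib 3.10.9. Local H3K4me3 means an H3K4me3 peak overlapping the domain by at least 1 bp. Named regions were the 3 longest lost and gained domains in each H3K4me3 state with no H3K27me3 peak of the other list within 5000 bp, the 3 NEC and 3 aRG-P domains of at least 10 kb with a partner that covered least of them, the 3 longest NEC domains covered to at least 90%, and the 1 Mb window with the most lost or gained bases. The domains compared and these rules were chosen with earlier results of these data known. The reference table holds GRCm38.p6, another build than mm9, so no gene names or sequences are given. Input and X-chromosome peaks were not analysed here beyond the shares given. The overlap code was checked on simulated data, in which each list was compared with an altered copy of itself. After 200 peaks were removed and 200 added in gaps, all 200 of each and 0 others were called, for the NEC list (5798 peaks) and the aRG-P list (4634 peaks). All other peaks kept their positions, so shifted edges and differing depth were not tested. Alternatives were another overlap rule, joined peaks, lists cut by score or length, and other H3K4me3 thresholds and distances.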

Additional observations from a re-analysis of the deposited data

How the results depend on the processing

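No paired analysis was possible because the lists were called on combined samples and carry no replicate number, and for the same reason no replicate could be left out. Under 10 settings, the main one included, the lost share stayed higher with H3K4me3 in both cell types than in NEC only, by 15.2 to 28.8 percentage points. Among these settings, the common lowest score left the lists almost unchanged. Requiring an overlap of at least 50% of the peak left the numbers of lost and gained domains within 1.5 times, but put the loss at 18.2% of NEC domains of at least 10 kb and the gain at 19.6% of aRG-P domains of at least 5 kb. With it, 55.5% of lost domains had NEC H3K4me3, 8.75% of gained domains had aRG-P H3K4me3, and the lost shares were 65.5% with H3K4me3 in both cell types and 41.0% in NEC only. Requiring no peak of the other list within 5000 bp gave 52.6% of lost domains with NEC H3K4me3 and a lost share of 27.5% with H3K4me3 in NEC only. Joining peaks across gaps up to 3000 bp gave 12.9% gained at 5 kb and over, 56.2% of lost domains with NEC H3K4me3, 6.83% of gained domains with aRG-P H3K4me3 and 54.7% of NEC bases covered. Cutting NEC to the 4634 highest-scoring domains gave 1946 lost, 60.2% of them with NEC H3K4me3, 57.0% of bases covered, and lost shares of 42.3% (both) and 24.4% (NEC only). Keeping the higher-scoring part of each list at its median gave 1260 lost and 650 gained, 15.1% gained at 5 kb and over, 77.9% of lost domains with NEC H3K4me3, 19.4% of gained domains with aRG-P H3K4me3, 58.2% of bases covered, and lost shares of 51.7% (both) and 23.7% (NEC only). Requiring −log10 q of at least 5 for H3K4me3 gave 4.38% of gained domains with aRG-P H3K4me3 and 49.0% lost with H3K4me3 in both. Counting H3K4me3 within 2000 bp gave 67.4% of lost domains with NEC H3K4me3, 12.3% of gained domains with aRG-P H3K4me3, and lost shares of 54.0% (both) and 25.2% (NEC only). H3K4me3 lists of equal length (15475 peaks) moved none of these beyond their interval. A common lowest score moved none either, but it removed 0 NEC domains and left 4633 of the 4634 aRG-P domains, so it could change little. Read depth is unknown, which limits every absence.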
